A study of Rattus norvegicus with 3 samples.

Results

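Newborn excitatory neurons marked by Neurod1 were examined in dissociated cells of the rat embryonic cerebral cortex. They were selected on their own transcript counts, as cells with at least 2 unique molecular identifiers (UMIs, single captured transcripts) of Neurod1, at most 2 of Eomes, fewer than 5 of Reln and 0 of Top2a, Mki67, Sox2 and Lhx9. Of 15327 cells kept in all libraries, 1741 met this rule. The library labelled E14 gave 1009 of them, the library labelled E16 gave 72 and the library labelled E18 gave 660. A cell was kept when it had at least 1000 detected genes and at most 10% mitochondrial UMIs.

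The study profiled wildtype rat cortex (Rattus norvegicus) by droplet-based single-cell RNA sequencing, with 1 library for each of 3 embryonic ages. The labels describe fresh primary cells released with papain and washed, with no agent or genetic change in any group. Their protocol text also speaks of expansion cultures, multiplexing oligonucleotides and sorted human cells, which does not match primary rat tissue, and which of those steps apply is not known. How many embryos were pooled is not given in the sources used here.

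With 1 library per label there was no replicate, so age and library cannot be told apart and no test was made. Intervals below are 95% intervals, exact Poisson for levels and Clopper-Pearson for shares, and cover counting error only. A level is given in CPM, the members' summed UMIs of a gene per 1000000 of all their UMIs, and a difference counts as 2-fold on log2(CPM + 1) ratios. Sums held 11290976 UMIs in the library labelled E14, 584002 in that labelled E16 and 6026775 in that labelled E18, so 1 UMI was worth 0.0886, 1.71 and 0.166 CPM.

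Genes tied to developmental stage were not ordered as the labels are. Embryonic globins made up 2.57%, 67.4% and 22.0% of globin UMIs in label order. Hmga2, an early progenitor gene, stood at 1.59, 174 and 10.5 CPM in kept cells, and Aldoc, a late glial gene, at 154, 17.0 and 141 CPM. The libraries are therefore named by label only, and no sequence in time is drawn from them. No member's barcode occurred among the members of another library, although 8 to 9 kept barcodes were shared by each pair of libraries.

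In the developing cortex, radial glia give rise to Eomes-expressing intermediate progenitors, whose daughters leave the cell cycle and migrate through the intermediate zone to the cortical plate. Proneural basic helix-loop-helix (bHLH) factors act in turn along this path, Neurog2 in progenitors, Neurod1 in cells that are starting to differentiate, and Neurod2 and Neurod6 in neurons. Neurons born early settle in deep layers and those born late in upper layers, and Bcl11b, Tbr1 and the Pou3f factors are among the genes that mark these fates.

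The members made up 22.7% of the cells kept from the E14 library (95% interval 21.5 to 24.0), 1.39% from the E16 library (1.09 to 1.74) and 11.6% from the E18 library (10.8 to 12.5). These intervals did not overlap. The share depended on the cell filter: with at least 2000 genes and at most 5% mitochondrial UMIs it was 6.19%, 0.410% and 5.83%, from 20, 15 and 156 members, so the libraries labelled E14 and E18 then lay close together. Members had a median of 9129, 7844 and 8052 UMIs, below the 11399.5, 12477 and 10671.5 of all kept cells, and median mitochondrial shares of 7.29%, 6.09% and 5.82%, above the 6.94%, 3.97% and 5.04% of all kept cells.

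Neurod1 reached 2 UMIs in 1760, 920 and 2269 kept cells in label order, and the exclusions removed unequal parts of these candidates. Eomes above 2 UMIs excluded 29.8%, 68.3% and 54.8% of them, and Top2a or Mki67, genes of dividing cells, 17.2%, 50.2% and 34.8%. Lhx9, a gene of early preplate-like neurons, excluded 3.12%, 52.0% and 17.1%, and a cell could fail on several genes. In the library labelled E16, 69 candidates were left out by Lhx9 alone, against 72 kept. With any number of Lhx9 UMIs allowed, a setting chosen after seeing the data, the share there was 2.72%.

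The threshold on Neurod1 cut through a continuous range, with a median of 3, 4 and 4 Neurod1 UMIs per member and highest values of 29, 16 and 36. In the library labelled E14, Rnd2 stood at 130 CPM in the 303 members with exactly 2 Neurod1 UMIs and at 66.0 CPM in the 527 cells with exactly 1, which met the rest of the rule. In that labelled E18, the 163 members just inside had 380 CPM of Rnd2 and the 227 cells just outside 270 CPM. In that labelled E16, with 17 members inside and 30 cells outside, Rnd2 stood at 280 against 227 CPM, but Nhlh1 was lower inside, at 47.8 against 80.2 CPM, and Sstr2 stood at 0 against 22.3 CPM. At the Eomes threshold, Neurog2 stood at 25.3 CPM in the 46 members with 2 Eomes UMIs and 43.7 CPM in the 33 cells with 3 in the library labelled E14, and at 45.3 (37 members) and 153 CPM (51 cells) in that labelled E18. Among endothelial, mural and microglial cells that were not members, which should lack the gene, 1 of 24, 3 of 58 and 1 of 42 had at least 2 Neurod1 UMIs.

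The 4 given markers that the rule does not use were each compared with all other kept cells as a description. This does not test the label, because members and gene lists were chosen with earlier results of these data known. Rnd2, a protein needed for radial migration, stood at 196, 418 and 507 CPM in members and 129, 81.2 and 205 CPM in other cells in label order. Slc17a6, the vesicular glutamate transporter of young glutamatergic neurons, stood at 33.7, 152 and 81.1 CPM against 20.3, 22.9 and 33.3 CPM. Both were higher in members in every library.

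Nhlh1, a bHLH factor of newly formed neurons, stood at 16.7, 108 and 105 CPM in members (intervals of 14.4 to 19.2, 82.9 to 138 and 96.5 to 113), beside 10.1, 21.8 and 41.5 CPM in other cells. It was higher in members in every library, and its level in members was lowest in that labelled E14. Sstr2, a somatostatin receptor, stood at 79.1, 8.56 and 70.0 CPM in members and at 43.3, 5.82 and 30.8 CPM in other cells. In the library labelled E16 only 5 Sstr2 UMIs were counted in the 72 members, so this marker did not set them apart there. The 4 markers were thus higher in members than in other cells in the libraries labelled E14 and E18, and Nhlh1, Rnd2 and Slc17a6 were in that labelled E16.

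**Figure D1:**
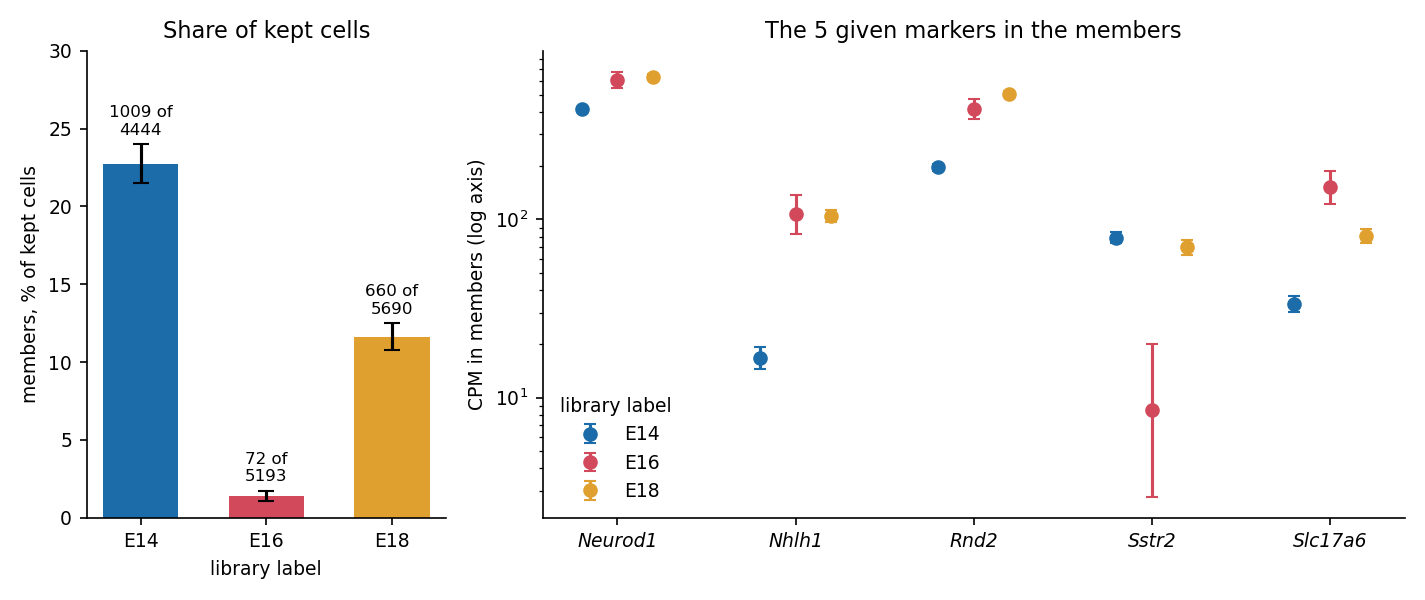
Left, members as a percentage of kept cells in each library, with exact 95% binomial intervals and the cell numbers above the bars. Right, levels of the 5 given markers in the members on a log CPM axis with exact 95% Poisson intervals, where the library labelled E14 is lowest for Nhlh1 (16.7 CPM), Rnd2 (196 CPM) and Slc17a6 (33.7 CPM) and that labelled E16 for Sstr2 (8.56 CPM); Neurod1 was used by the rule.

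Detection per cell was compared after thinning each cell to 2000 UMIs, which left out 1 member, labelled E16. Nhlh1 had a UMI in 3.96% of members labelled E14 (2.85 to 5.36), 22.5% labelled E16 (13.5 to 34.0) and 17.4% labelled E18 (14.6 to 20.5). Before thinning these shares were 14.7%, 51.4% and 52.9%. Of the 124 endothelial, mural and microglial cells, with a median of 18050 UMIs, 0.806% (0.0204 to 4.41) had an Nhlh1 UMI at the same depth and 2.42% before thinning.

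The interval of members labelled E14 overlapped that of the background cells. Rnd2 was found in 30.4%, 56.3% and 61.1% of members against 4.03% of background cells, and before thinning in 57.3%, 94.4% and 88.5% against 21.0%. Slc17a6 was found in 7.93%, 19.7% and 14.2% against 0.806%, and before thinning in 24.9%, 54.2% and 40.5% against 2.42%. Sstr2 was found in 16.7% and 14.1% of members labelled E14 and E18, and in 0 of 71 members labelled E16. At this depth a count of 0 allows up to 4.23% of members with a UMI (3 of 71), which does not limit the share before thinning. Before thinning its shares were 43.0%, 6.94% and 37.9% in label order, and the background values were 0.806% and 2.42%.

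Levels of these markers moved with how the rule met depth. When the rule was applied after thinning each cell to 5000 UMIs, members labelled E14 had 28.0 CPM of Nhlh1, 302 of Rnd2, 146 of Sstr2 and 63.4 of Slc17a6, against 129, 595, 100 and 101 CPM labelled E18. Nhlh1, Rnd2 and Slc17a6 stayed lower in the library labelled E14. Under the stricter cell filter, with 20 and 15 members, Slc17a6 stood at 16.2 CPM labelled E14 and 63.3 labelled E16, Sstr2 at 51.9 and 21.1 CPM and Nhlh1 at 13.0 and 56.2 CPM.

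The bHLH cascade was read in the members' other factors. Neurog2, which commits progenitors to the neuronal path, stood at 14.1, 66.8 and 21.9 CPM in label order, and 29 of its 39 UMIs labelled E16 came from 13 members without a Neurod6 UMI. Neurod2 stood at 668, 474 and 680 CPM and Neurod6, a factor of postmitotic excitatory neurons, at 1190, 704 and 1310 CPM. Both were lowest in the library labelled E16, beyond their counting intervals.

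Nhlh2, a paralogue of Nhlh1, stood at 43.4, 300 and 113 CPM. St18, a zinc-finger factor of the Myt1 family, stood at 2.04, 70.2 and 28.9 CPM, and its relative Myt1 at 29.6, 61.6 and 71.0 CPM. Insm1, a zinc-finger factor that promotes basal progenitors, ran the other way at 170, 22.3 and 74.5 CPM. Thus Nhlh1, Nhlh2, St18 and Myt1 were lowest, and Insm1 highest, in members labelled E14.

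Over all genes with a mean of at least 5 CPM, 1.92% were at least 2-fold higher and 2.76% at least 2-fold lower in members labelled E18 than in those labelled E14 (178 and 256 of 9286 genes). For label E16 over E14 these shares were 6.09% and 10.3%, or 570 and 966 of 9352 genes. The sum of 72 cells is shallow, and 432 and 613 of those genes had intervals apart from those labelled E14. For label E16 over E18 the shares were 4.80% and 7.74%. Of 14 bHLH and neuron-commitment factors measured, 4 were at least 2-fold higher and 1 lower in label E18 over E14 (median log2 ratio 0.08, all genes 0.01), and 5 higher and 4 lower in E16 over E14 (median -0.25, all genes -0.08).

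Promoters of members' leading genes were searched for CAGATG, an E-box form bound by Neurod and Neurog proteins. The 20 genes with the highest mean ratio in members over all other kept cells include Sema6d, Neurod1, Neurod2, Ppfia2, Plxna4, Neurod6, Chga, Cntn2, Myt1l and Unc5d, and describe the selection, since the same cells were chosen by the rule. The 250 bases before the start of each gene were taken from RefSeq on GRCr8, read in the direction of the gene, and 14 of the 24 leading and given marker genes had an entry. The sequences below are those of the bHLH genes that hold the motif, Neurod2 (chr10:83824278-83824527, minus strand), Neurod6 (chr4:86180156-86180405, minus strand) and Nhlh1 (chr13:87054935-87055184, minus strand), shown because these 3 genes carry much of the account above. Capitals mark CAGATG or its reverse complement CATCTG.
Neurod2: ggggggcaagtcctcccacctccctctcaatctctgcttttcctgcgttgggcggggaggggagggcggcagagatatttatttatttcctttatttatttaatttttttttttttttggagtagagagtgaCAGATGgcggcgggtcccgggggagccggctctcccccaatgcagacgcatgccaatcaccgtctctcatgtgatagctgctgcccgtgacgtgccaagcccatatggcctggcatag
Neurod6: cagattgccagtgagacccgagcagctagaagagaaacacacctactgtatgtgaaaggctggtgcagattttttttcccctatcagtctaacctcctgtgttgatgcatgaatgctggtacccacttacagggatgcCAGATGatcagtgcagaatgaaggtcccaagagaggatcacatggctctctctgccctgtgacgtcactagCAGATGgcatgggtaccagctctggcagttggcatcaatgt
Nhlh1: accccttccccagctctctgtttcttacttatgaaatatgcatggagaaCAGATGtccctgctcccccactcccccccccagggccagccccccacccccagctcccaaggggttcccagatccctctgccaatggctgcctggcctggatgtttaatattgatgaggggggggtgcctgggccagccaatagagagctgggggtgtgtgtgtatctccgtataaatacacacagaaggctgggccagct
Counting back from the start, the motif began at -118 in Neurod2, at -112 and -41 in Neurod6 and at -201 in Nhlh1. It was present in 3 of the 11 leading genes with an entry (27.3%; Neurod2, Neurod6 and Nsg2, the last at -121), in 1 of the 4 given markers with an entry (25.0%; Nhlh1) and in 13.2% of the 26211 promoters of genes in the matrices. A match is a string of letters, and binding was not measured.

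The members were then set beside their neighbours on the path from progenitor to neuron. One set held Eomes-positive cells without mitotic transcripts (at least 3 Eomes UMIs; 508, 136 and 742 cells in label order). The other held Neurod1-low neurons (at most 1 Neurod1 UMI and at least 3 of Neurod2 and Neurod6 together, otherwise filtered as the members; 1676, 47 and 714 cells). These sets were cut on UMIs of the same genes as the members, so their differences are a description.

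Neurog2 stood at 779, 369 and 524 CPM in Eomes-positive cells, against 14.1, 66.8 and 21.9 CPM in members and 8.99, 12.4 and 11.2 CPM in Neurod1-low neurons. Mfap4, an extracellular matrix gene, went from 1857, 556 and 1283 CPM through 218, 339 and 392 CPM to 36.5, 76.8 and 65.0 CPM. Gadd45g, a growth-arrest gene of cells leaving division, went from 516, 979 and 985 CPM to 44.5, 188 and 174 CPM in members. In Neurod1-low neurons it stood at 23.4, 225 and 82.7 CPM, not lower than in members labelled E16. These 3 genes were lower in members than in Eomes-positive cells in every library, by the smallest ratio in that labelled E16.

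Neuronal genes ran the other way. Mapt, which encodes the microtubule protein tau, stood at 133, 48.7 and 45.9 CPM in Eomes-positive cells, 802, 166 and 387 in members and 1161, 364 and 901 in Neurod1-low neurons. Grin2b, an NMDA receptor subunit, stood at 28.4, 3.41 and 12.2 CPM, then 162, 17.1 and 59.7 CPM, then 290, 59.4 and 215 CPM. Members were intermediate for both genes in all 3 libraries.

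Other genes were higher in members than on either side in at least 1 library. Unc5d, a netrin receptor of migrating multipolar cells, stood at 205, 236 and 87.7 CPM over Eomes-positive cells, members and Neurod1-low neurons of the library labelled E14 and at 152, 345 and 134 CPM in that labelled E18. In that labelled E16 it stood at 46.1, 78.8 and 74.3 CPM, with overlapping intervals. Plxna4, a semaphorin co-receptor, stood at 16.3, 127 and 91.5 CPM labelled E14 and 13.3, 132 and 73.5 CPM labelled E18, but was highest in Neurod1-low neurons labelled E16, at 5.98, 106 and 171 CPM. Slc17a6 was higher in members than on either side in the library labelled E18 (56.0, 81.1 and 21.0 CPM) and in that labelled E16 (77.7, 152 and 109 CPM, the last 2 with overlapping intervals), whereas in that labelled E14 it was highest in Eomes-positive cells (50.1, 33.7 and 10.6 CPM).

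Rnd2 showed the same contrast between libraries, at 426, 196 and 45.7 CPM labelled E14 and 434, 507 and 177 CPM labelled E18. Nhlh1 did so too, at 35.4, 16.7 and 4.61 CPM against 88.4, 105 and 36.7 CPM. So Rnd2, Nhlh1 and Slc17a6 were highest in Eomes-positive cells in the library labelled E14 and in members in that labelled E18. In that labelled E16, Rnd2 was highest in members (332, 418 and 223 CPM), and Nhlh1 stood level in Eomes-positive cells and members (110, 108 and 69.4 CPM). Sstr2 was highest in Eomes-positive cells in every library, at 174 against 79.1 CPM in members labelled E14, 49.5 against 8.56 CPM labelled E16 and 85.3 against 70.0 CPM labelled E18.

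**Figure D2:**
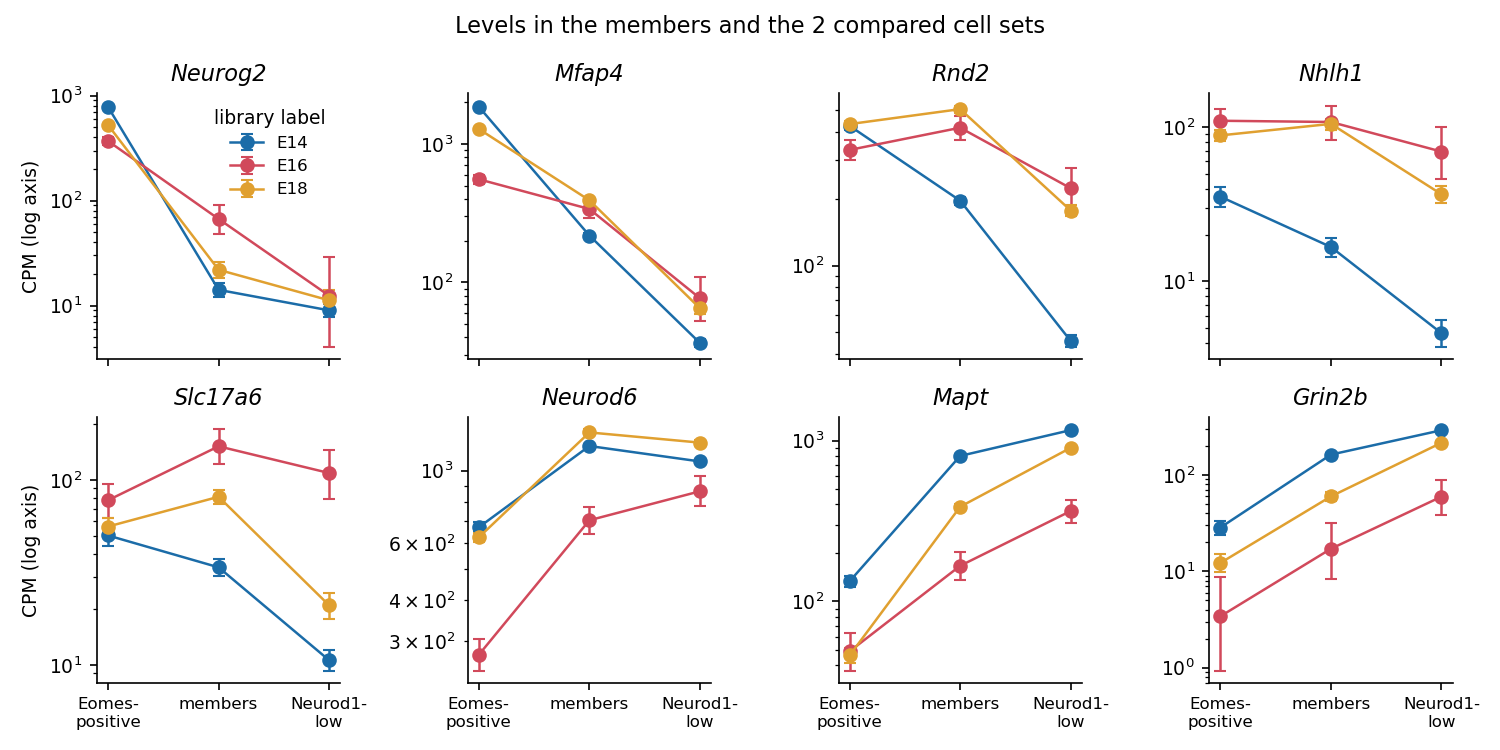
CPM on log axes in Eomes-positive cells, members and Neurod1-low neurons, with 1 line for each library and exact 95% Poisson intervals. Neurog2 and Mfap4 decline from left to right, Mapt and Grin2b climb, and Rnd2 and Nhlh1 are highest in Eomes-positive cells in the library labelled E14 (426 and 35.4 CPM) but in members in that labelled E18 (507 and 105 CPM).

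By gene group, the intermediate-progenitor list was at least 2-fold lower in members than in Eomes-positive cells for 9 of 10, 9 of 11 and 9 of 11 measured genes in label order. Eomes, which defines both sets, is 1 of the 9 in each library. Over all genes, 8.36%, 9.83% and 6.99% were that much lower and 7.27%, 7.86% and 7.41% higher. Cytoskeleton and neurite genes were at least 2-fold higher for 14, 10 and 13 of 19 genes, with median log2 ratios of 1.37, 1.12 and 1.49. The cell-cycle-exit list also holds D cyclins, Cdk4 and Cdk6, which drive the cycle. Of its measured genes, 5 of 10, 6 of 11 and 6 of 10 were at least 2-fold lower, with Ccnd1, Ccnd2 and Cdk6 among them in every library. So was Btg2, an antiproliferative gene at 554, 470 and 427 CPM in Eomes-positive cells and 68.3, 142 and 88.4 CPM in members. The cycle inhibitor Cdkn1b was nearly level, with log2 ratios of -0.40, -0.18 and -0.21.

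Against Neurod1-low neurons, 1.18%, 8.53% and 1.65% of all genes were at least 2-fold higher in members and 0.903%, 7.43% and 2.07% lower. The shares labelled E16 rest on 72 against 47 cells. Of 23 migration and polarity genes, 3, 1 and 5 were at least 2-fold higher and 1, 2 and 2 lower in label order. Deep-layer genes were lower for 3 of 13, 3 of 12 and 4 of 13 and higher for 0, 2 and 1, with median log2 ratios of -0.87, -0.02 and -0.66. Mef2c, a factor of maturing cortical neurons, stood at 231, 58.2 and 124 CPM in members and 434, 245 and 361 CPM in Neurod1-low neurons.

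Layer-fate genes differed between the libraries. Bcl11b, a factor of subcerebral projection neurons, stood at 261 CPM (251 to 270) in members labelled E14, 1127 (1042 to 1216) labelled E16 and 1046 (1020 to 1072) labelled E18. Members labelled E14 were thus low in Bcl11b beside both other libraries, whose intervals overlapped. The contrast was shared by the neighbouring sets and was not particular to members. Log2 ratios of members over Neurod1-low neurons were -0.51, 0.09 and -0.01 in label order, and over Eomes-positive cells 1.13, 1.36 and 1.52.

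Among the other deep-layer genes, Tbr1, a factor of layer 6 neurons, stood at 143, 587 and 355 CPM. Foxp2, also of deep layers, stood at 19.8, 73.6 and 91.4 CPM, and Hs3st4, a heparan sulphate sulfotransferase of layer 6, at 9.57, 37.7 and 38.2 CPM. These were lowest in the library labelled E14, whereas Fezf2, the selector of subcerebral identity, varied little, at 119 (113 to 126), 108 (82.9 to 138) and 144 CPM (135 to 154). Not all members of the list ran that way: Ldb2 stood at 76.3, 0 and 25.6 CPM, and Crym, a thyroid-hormone-binding protein, at 59.3, 3.42 and 81.3 CPM. The level of Ldb2 labelled E14 was 14.8-fold a floor of 3 counts over the members labelled E16, leaving out counting error in that level.

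Upper-layer factors of the POU family were highest in members labelled E14. Pou3f1 stood at 325, 99.3 and 72.7 CPM, Pou3f2 at 432, 90.8 and 101 CPM and Pou3f3 at 240, 65.1 and 102 CPM. Pou3f2 was also highest labelled E14 in Neurod1-low neurons (247, 39.6 and 35.3 CPM) and in Eomes-positive cells (407, 136 and 167 CPM). Cux1, a homeodomain factor of upper-layer neurons, stood at 135, 56.5 and 60.9 CPM and Dok5, an adaptor protein, at 102, 0 and 37.0 CPM. Lhx2 (301, 392 and 303 CPM) and Epha3 (183, 151 and 219 CPM) of the same list stayed within 2-fold.

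Counted over the lists, 5 of 12 deep-layer genes were at least 2-fold higher and 1 lower in label E18 over E14, beside 1.92% and 2.76% of all genes, with a median log2 ratio of 0.68. The median was 0.41 with globin, mitochondrial and ribosomal genes left out of the totals and 1.42 under the stricter cell filter. Of 14 upper-layer genes, 7 were at least 2-fold lower and none higher, with a median of -1.01. For E16 over E14, where 6.09% of all genes were higher and 10.3% lower, 6 of 13 deep-layer genes were higher and 2 lower (median 0.82), and 10 of 14 upper-layer genes were lower (median -1.78, or -1.70 with genes at 0 held at the floor).

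**Figure D3:**
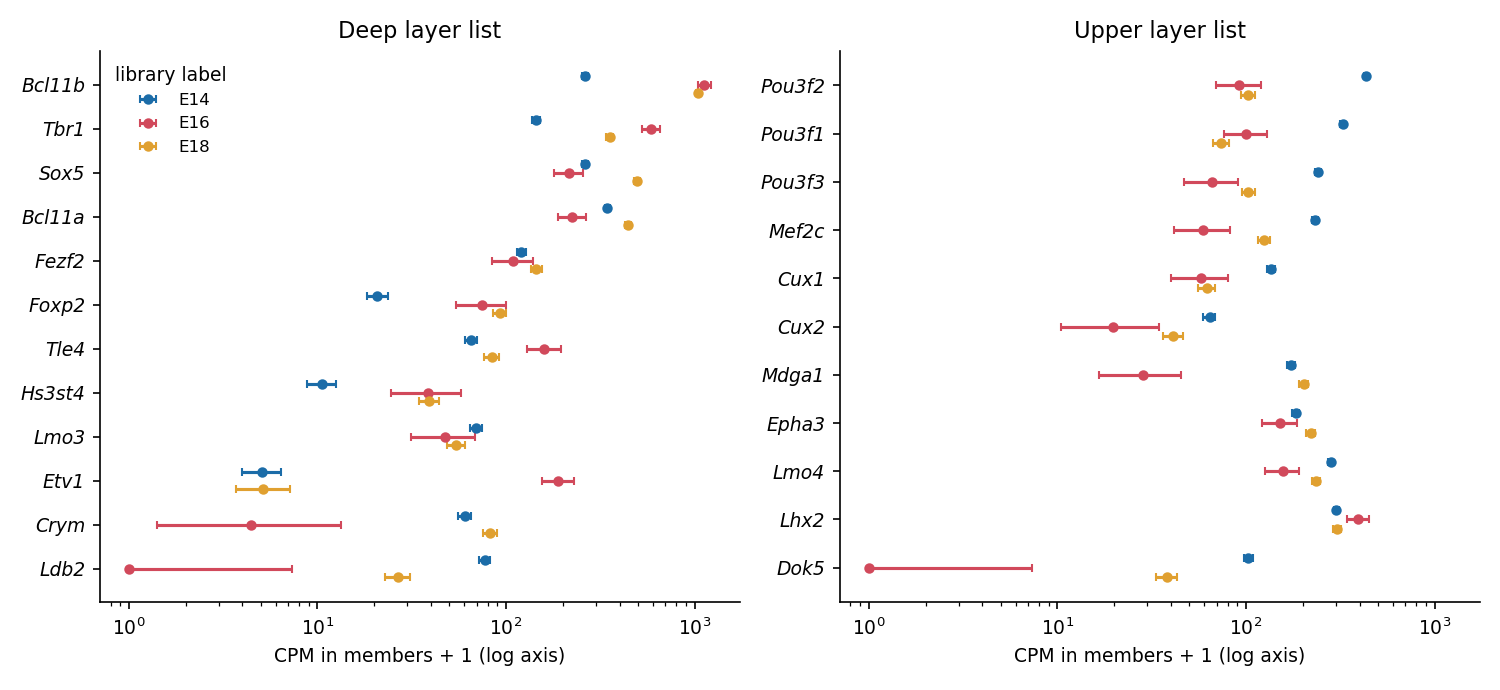
Levels of 12 deep-layer and 11 upper-layer genes in the members of each library, on a log axis of CPM + 1 with exact 95% Poisson intervals. Bcl11b and Tbr1 lie to the right in the libraries labelled E16 and E18, and the Pou3f genes lie to the right in that labelled E14; Ldb2 and Dok5 had 0 UMIs in the library labelled E16.

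In single members thinned to 2000 UMIs, Bcl11b had a UMI in 29.2% of those labelled E14 (26.4 to 32.2), 80.3% labelled E16 (69.1 to 88.8) and 81.8% labelled E18 (78.7 to 84.7). Before thinning these shares were 63.7%, 95.8% and 98.6%. Of the 124 background cells, 3.23% had a Bcl11b UMI at the same depth (0.886 to 8.05) and 16.1% before thinning. The lower level labelled E14 thus went with fewer members in which the gene was found.

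Members also varied in how much Eomes they kept. Of members, 13.3% (11.2 to 15.5), 47.2% (35.3 to 59.3) and 20.3% (17.3 to 23.6) had 1 or 2 Eomes UMIs in label order, and the rest had 0. Their median depth was 7435.5, 7710 and 7483.5 UMIs, against 9301, 8106 and 8211.5 UMIs in members with none.

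Rnd2, Mfap4 and Nhlh1 were higher where Eomes was still present. Rnd2 stood at 434 against 167 CPM labelled E14, 556 against 303 labelled E16 and 630 against 479 labelled E18, for members with and without Eomes UMIs. Mfap4 stood at 751 against 152, 466 against 235 and 932 against 267 CPM. Nhlh1 stood at 31.5 against 14.8, 125 against 93.8 and 145 against 95.1 CPM, with overlapping intervals labelled E16.

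Mapt, Stmn2 and Plxna4 were lower there in the libraries labelled E14 and E18. Mapt stood at 485 against 841, 121 against 203 and 203 against 429 CPM, and Stmn2, a tubulin-binding protein of growing axons, at 1724 against 2500, 3437 against 3821 and 1397 against 2242 CPM. Plxna4 stood at 67.1 against 134, 83.3 against 125 and 66.1 against 148 CPM. The intervals of all 3 genes overlapped in the library labelled E16. Slc17a7, the later vesicular glutamate transporter, had overlapping intervals in every library, at 25.9 against 24.6 CPM labelled E14 and 46.7 against 54.6 CPM labelled E18. Neurod6 was nearly level, at 1234 against 1184, 662 against 738 and 1304 against 1312 CPM.

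The Bcl11b difference between libraries was present on both sides of this split. Bcl11b stood at 265, 1107 and 1044 CPM in members with no Eomes UMI and at 223, 1151 and 1053 CPM in those with 1 or 2. Pou3f2 stood at 427, 68.8 and 96.5 CPM and at 468, 117 and 122 CPM, highest in the library labelled E14 on both sides.

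**Figure D4:**
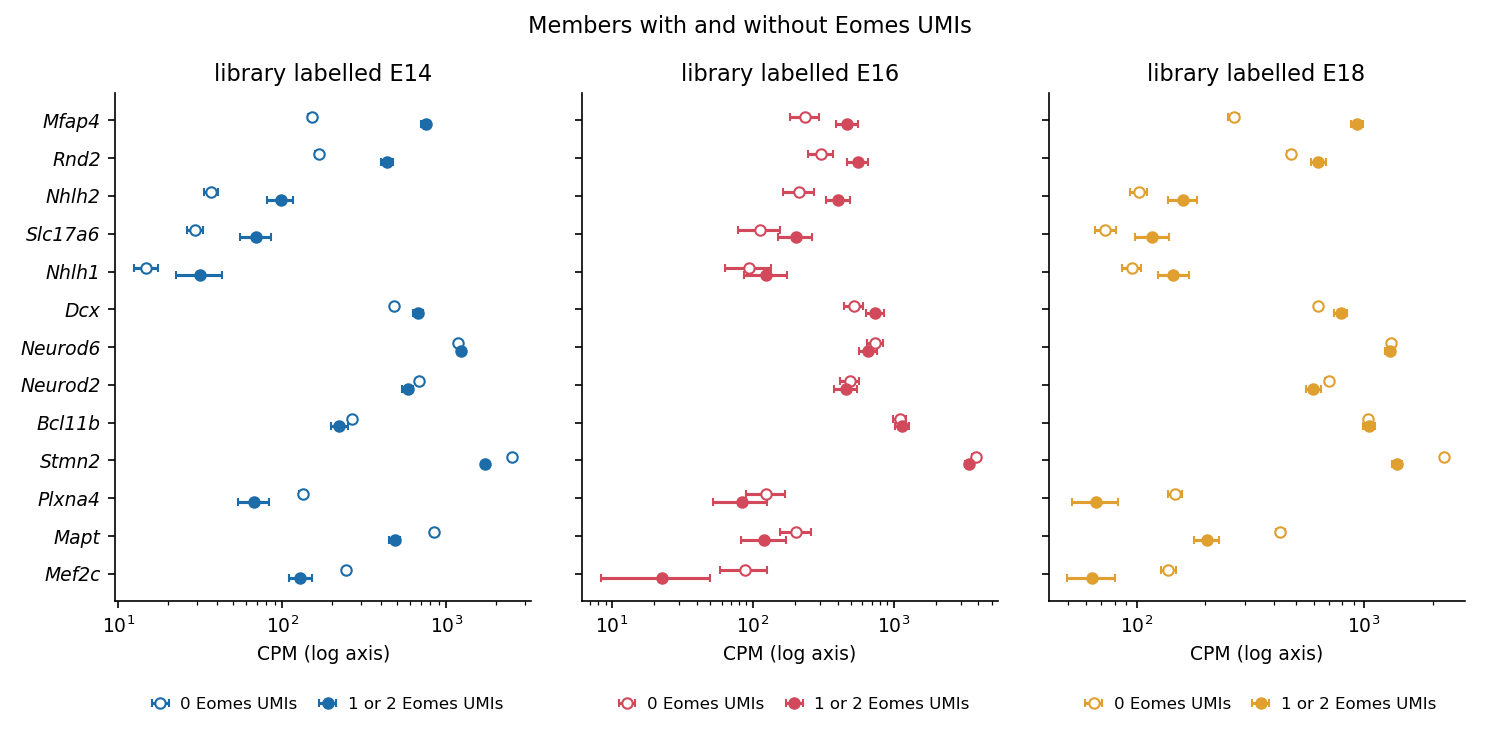
CPM on log axes in members with 0 Eomes UMIs (open points) and with 1 or 2 (filled points), 1 panel for each library, with exact 95% Poisson intervals. Mfap4 and Rnd2 are higher and Mef2c lower in members with Eomes UMIs in all 3 panels; the intervals of Plxna4, Stmn2 and Mapt overlap in the panel labelled E16, and those of Neurod6 lie close together throughout.

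Neurod6 was present in nearly all members labelled E14 and E18, with 3 of 1009 and 1 of 660 lacking it, but was at 0 in 13 of 72 labelled E16 (18.1%, 9.98 to 28.9). Those 13 cells had 643 CPM of Neurod1 but 79.0 CPM of Neurod2, against 584 CPM in the 42 members of that library with at least 5 Neurod6 UMIs. Vim, an intermediate filament of progenitors, stood at 1151 (939 to 1398) against 405 CPM (342 to 477) and Stmn2 at 1445 against 3970 CPM. Neurog2 stood at 327 against 19.6 CPM. Etv1, an ETS factor, stood at 372 CPM in the cells without Neurod6, 515 CPM in the 17 members with 1 to 4 Neurod6 UMIs and 16.8 CPM in those with at least 5, which held 6 of its 110 UMIs.

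Migration genes differed between libraries one by one. Rnd3, the close relative of Rnd2, stood at 62.4, 235 and 185 CPM and Dcx, doublecortin, a microtubule protein of migrating neurons, at 500, 620 and 660 CPM. Nrp1, a semaphorin receptor, stood at 213, 10.3 and 87.9 CPM and Dab1, the reelin signal adaptor, at 93.3, 8.56 and 34.8 CPM. Of 23 migration and polarity genes measured, 2 were at least 2-fold higher and 3 lower in label E18 over E14, and 2 higher and 7 lower in E16 over E14. Over all genes the shares were 1.92% and 2.76%, and 6.09% and 10.3%, and the same shares apply to the guidance, neurite, transmitter and stage genes that follow.

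Axon guidance genes included Dcc, the netrin receptor, at 38.7, 205 and 164 CPM. Of 14 guidance genes, 1 was at least 2-fold higher and none lower in label E18 over E14, and 5 were higher, 4 of them with intervals apart, and none lower in E16 over E14. The contactin-associated adhesion protein Cntnap2 stood at 32.4, 562 and 242 CPM, and Ncam1, the neural cell adhesion molecule, at 659, 192 and 395 CPM.

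Structural genes of the neurite were mostly within 2-fold. Tubb3, neuronal tubulin, stood at 3749, 3086 and 2798 CPM and Map1b, a microtubule protein of growing axons, at 2449, 2574 and 2806 CPM. Of 19 such genes, 1 was at least 2-fold higher and 2 lower in label E18 over E14: Ina, the neurofilament alpha-internexin, at 236, 637 and 516 CPM, and Stmn4 and Mapt, with Stmn4 at 299, 190 and 113 CPM.

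Of 10 transmitter transport and receptor genes, 2 were at least 2-fold higher and 2 lower in label E18 over E14, and 3 higher and 4 lower in E16 over E14. Slc17a7 stood at 24.7, 47.9 and 53.1 CPM and Gria2, an AMPA receptor subunit, at 300, 190 and 252 CPM. Cnr1, the cannabinoid receptor of young excitatory axons, stood at 168, 421 and 278 CPM. Slc12a5, the chloride exporter of mature neurons, stood at 0.177, 0 and 0.166 CPM.

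Genes of developmental stage differed within the members as well. Hmga2 stood at 0.177, 25.7 and 0.166 CPM and Crabp2, a retinoic acid binding protein, at 9.74, 277 and 50.4 CPM. Nfix, a nuclear factor I gene of later stages, stood at 713, 65.1 and 476 CPM, while its relative Nfia stood at 592, 1257 and 2123 CPM. Of 5 early-stage genes 2 were at least 2-fold higher in label E18 over E14, and of 6 in E16 over E14, 4 were. Of late-stage genes, 1 was higher and 1 lower of 6 in E18 over E14, and 1 higher and 2 lower of 7 in E16 over E14.

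By rank, the genes with the highest ratio of label E18 over E14 were Ackr3, Rgs13, Cntnap2, Pcp4 and Chd7. Ackr3, a scavenging chemokine receptor, stood at 4.25, 15.4 and 67.4 CPM. Pcp4, a calmodulin regulator, stood at 184, 949 and 1329 CPM, and Chd7, a chromatin remodeller, at 12.2, 122 and 86.8 CPM. Pcp4 was lowest labelled E14 in Neurod1-low neurons too, at 158, 1642 and 1726 CPM. The lowest were Tafa2, Gabrb2, LOC120095544, Cadm2 and Opcml, the last a cell adhesion protein at 101, 1.71 and 16.6 CPM.

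In label E16 over E14 the highest were Calb1, Ebf1, Ebf2, Etv1 and Crabp2. Calb1, calbindin, stood at 0.266, 146 and 8.63 CPM and Ebf1, an early B-cell factor family member, at 1.51, 236 and 15.6 CPM. Ebf2 had 0 UMIs in members labelled E14 and 54.8 CPM (37.5 to 77.4) labelled E16, or 206-fold the floor of 3 counts over the members labelled E14. Ntm, neurotrimin, stood at 303, 0 and 52.9 CPM, its level labelled E14 being 59.1-fold the floor of 3 counts over the members labelled E16. Both folds leave out counting error in the higher level.

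Markers of other cell types were summed in the members. Glial (7 genes), endothelial or mural (6 genes) and microglial (5 genes) lists reached at most 3.42 CPM in any library. In other kept cells they summed to 7.97, 10.4 and 5.23 CPM, 65.4, 15.4 and 23.8 CPM, and 40.4, 23.2 and 28.4 CPM. The upper limits in members labelled E16 were 6.32, 12.4 and 6.32 CPM, so the small sum there sets a loose bound. The 10 GABAergic genes together had 135, 7 and 22 UMIs in all members, with 9, 3 and 7 of the 10 having a UMI and Sp9 at 0 throughout. The 95% intervals of their summed level were 10.0 to 14.2, 4.82 to 24.7 and 2.29 to 5.53 CPM, below the 56.8, 112 and 72.8 CPM of other kept cells.

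Cajal-Retzius genes summed to 12.8, 123 and 33.5 CPM over 7 genes with Lhx5 at 0; Calb2 stood at 2.04, 77.1 and 26.2 CPM, most of the sum labelled E16 and E18 but not E14. The 6 preplate-like genes summed to 45.5, 380 and 140 CPM with Lhx5, Barhl2 and, by the rule, Lhx9 at 0. Nhlh2, described above among the bHLH factors, gave 490 of the 514, 175 of the 222 and 680 of the 842 UMIs of that sum. In other kept cells the Cajal-Retzius genes summed to 72.4, 92.5 and 110 CPM and the preplate-like genes to 36.0, 103 and 93.0 CPM. The 13 cycling genes summed to 171, 384 and 198 CPM with Top2a and Mki67 at 0 by the rule, against 1230, 4051 and 3315 CPM in other kept cells. The 14 radial glia genes, with Sox2 at 0 by the rule, summed to 464, 1053 and 564 CPM against 2838, 4785 and 4711 CPM. The 12 intermediate-progenitor genes, with Eomes at most 2 UMIs by the rule, summed to 466, 1007 and 900 CPM against 1194, 961 and 1830 CPM. All 10 measured were higher in label E18 over E14 and in E16 over E14, with median log2 ratios of 0.81 and 1.08 (all genes 0.01 and -0.08). In members the Cajal-Retzius, preplate-like, cycling, radial glia and intermediate-progenitor sums were highest in the library labelled E16. Their part in the levels of other genes there was not tested. Globin and other erythroid genes summed to 102, 784 and 868 CPM, and 1 member labelled E18 held 3415 of its library's 5229 such UMIs.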

How the data were processed

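The authors deposited 3 matrices of UMI counts per gene and barcode, 1 for each label, made with Cell Ranger 6.0.1 on mRatBN7.2 per the submitters' processing notes. These are raw counts of 29772 genes, with 62740631, 80974234 and 73727823 UMIs in label order. From them, cells were kept and members chosen by the rule given above, UMIs were summed per library and scaled to CPM, and log2 ratios were taken with 1 CPM added over genes with a mean of at least 5 CPM, leaving out mitochondrial, ribosomal, globin, Xist and Y chromosome genes. Members and gene lists were chosen with earlier results of these data known. Named genes came from 29 lists and from fixed ranks: the 10 highest and 10 lowest ratios for each pair of libraries and each compared set (at least 50 CPM), and the 20 leading genes of members over other cells, with 10 CPM added in place of 1 wherever cell sets were ranked. Doublets were not removed; as an alternative the highest Scrublet scores, 0.8% per 1000 cells, were taken out. Scrublet's own threshold marked 0.0385% of cells labelled E16 and had not worked there. Promoters came from RefSeq (GRCr8), a build other than that of the files, and were matched by symbol for 71.8% of genes. The 2-fold calls were tested on simulated counts drawn from the members' sums, with counting error only. Scanpy 1.11.5, pandas 2.3.3, scipy 1.17.1, numpy 2.4.6 and matplotlib 3.10.9 were run under Python 3.11.15.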

Additional observations from a re-analysis of the deposited data

Results flagged for a closer look

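Barcodes outside the cell filter also held cells meeting the rule on UMIs: 75 of 2656 labelled E14, 9 of 1514 labelled E16 and 21 of 1247 labelled E18. These came to attention because they carry the members' transcripts in barcodes that the main comparisons leave out; part of them enter under the looser filter below. Most were over the mitochondrial maximum, 68, 8 and 19 of them in label order. Rnd2 stood at 255, 657 and 272 CPM in these cells, Neurod6 at 1044, 131 and 1060 CPM and Bcl11b at 171, 919 and 965 CPM, so the contrast of Bcl11b between the library labelled E14 and the others was present there too.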

How the results depend on the processing

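No paired analysis was possible because each label has 1 library. The members' share had the same order, highest to lowest (E14, E18, E16) under every alternative run, and none of 30 log2 results of size 1 or more took the opposite sign in 336 values. In the order E14, E16, E18, the share was 6.19%, 0.410% and 5.83% with the stricter filter (at least 2000 genes, at most 5% mitochondrial). It was 34.6%, 1.96% and 15.6% with at least 1 Neurod1 UMI, 11.0%, 0.828% and 6.80% with at least 4, and 19.7%, 0.732% and 9.24% in members without Eomes UMIs, an alternative chosen after seeing the data. The looser filter (at least 500 genes, at most 20% mitochondrial) gave 19.6% labelled E14 and 10.7% labelled E18, the rule after thinning to 5000 UMIs 15.1% labelled E14 and 1.85% labelled E16, and no limit on Lhx9 2.72% labelled E16 and 13.4% labelled E18. The deep-layer median log2 ratio of E18 over E14 was 1.42 with the stricter filter, 0.44 with the looser one, 0.42 and 0.53 with at least 1 and 4 Neurod1 UMIs, 0.45 with a minimum of 20 CPM or none, and 0.41 with totals without globin, mitochondrial and ribosomal genes. The upper-layer median was -1.20 for E18 over E14 without a limit on Lhx9 and -2.52 for E16 over E14 with the stricter filter. Genes at least 2-fold higher and lower numbered 886 and 922 for E18 over E14 with the stricter filter, and 76 and 96 with 10 CPM added. For E16 over E14 they numbered 1489 and 1894, and 230 and 418. The stricter filter left 20, 15 and 156 members; the cause of the shifts was not tested. Removing doublets took out 31, 2 and 6 members and moved no share or layer median beyond its interval. The small sum labelled E16, where 1 UMI is 1.71 CPM, limits every ratio with that library.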
